A study of Mus musculus with 17 samples.

Results

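Where does p130 sit in urothelial chromatin in every library that was made, with and without Stag2? Peaks of the 6 p130 CUT&RUN libraries on chromosomes 1 to 19 were merged where they shared at least 1 bp, which gave 1728252 regions. Of these, 1226 regions (0.0709%) held a peak in all 6 libraries, and they are called shared p130 regions here. They were chosen by the p130 peaks themselves, so every p130 value below is a description of that choice and carries no test. The libraries came from urothelium peeled from the bladders of Stag2-KO and Stag2-WT mice, both 1 week after TMX induction (tamoxifen-driven recombination), with about 500000 cells per condition. There were 3 Stag2-KO and 3 Stag2-WT libraries for p130, 2 and 2 for STAG2, and 2 and 3 for LIN54, all labelled as biological replicates. The labels name neither the promoter that drives recombination nor the age or sex of the mice. The STAG2 and LIN54 libraries were batch 1, p130-WT replicate 1 was batch 2, and the other 5 p130 libraries were batch 3.

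p130, encoded by Rbl2, is a pocket protein related to the retinoblastoma protein. In resting cells it joins E2F4 and its partner DP1 to the MuvB core to form DREAM, a complex that keeps cell cycle genes off. DREAM reaches DNA through E2F proteins, which bind E2F sites and mark genes of DNA replication, and through LIN54, the MuvB subunit that binds the cell cycle gene homology region (CHR) in promoters of mitotic genes. STAG2 belongs to cohesin, a ring-shaped complex that pairs sister chromatids and extrudes chromatin loops. In CUT&RUN, an antibody brings a nuclease to the protein in intact nuclei, and the DNA fragments it releases are sequenced.

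Each of the 15 peak lists held 286084 to 539200 peaks with p up to 0.05, of which 323 to 896 reached q 0.01 in a p130 list. Most peaks of a list were therefore weak, and a peak in all 6 libraries was required here. The background coverage recovered from the lists was 1.28 to 2.03 fragments per base. p130-WT replicate 1, the library of batch 2, stood apart with 5.98% of its peaks on the X chromosome, against 0.310% to 0.465% in the other p130 libraries. In LIN54 libraries this share was 0.486% and 0.744% in Stag2-KO, against 5.09%, 4.17% and 3.16% in Stag2-WT. In STAG2 libraries it was 0.436% and 0.259% in Stag2-KO, against 1.00% and 2.42% in Stag2-WT. The cause was not tested, and the LIN54 and STAG2 genotype contrasts below cannot be told apart from this difference. No 2 p130 libraries shared more than 0.00113% of their peaks with identical ends. Peak positions do not measure transcripts, so the tissue label could not be checked against expression of its markers.

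Promoters with some of the best ranked shared regions, and that of the pocket protein gene Rbl1, are shown because they hold the sequence elements through which DREAM is known to reach DNA. Each is the 250 bases before a RefSeq transcription start site (GRCm38.p6, the assembly of mm10), written 5′ to 3′ on the gene's strand and ending at the base before the start site. Capitals mark E2F sites (TTTCCCGC, TTTGGCGC, TTTCGCGC or TTTGCCGC) and the CHR (TTTGAA), each searched on both strands. Slbp, also among the 10 best ranked, holds neither element in its 250 bases and is not shown. H4c1, Mdc1, Mcm5 and Rbl1 hold E2F sites and no CHR.
H4c1, chr13:23761250-23761499, minus strand: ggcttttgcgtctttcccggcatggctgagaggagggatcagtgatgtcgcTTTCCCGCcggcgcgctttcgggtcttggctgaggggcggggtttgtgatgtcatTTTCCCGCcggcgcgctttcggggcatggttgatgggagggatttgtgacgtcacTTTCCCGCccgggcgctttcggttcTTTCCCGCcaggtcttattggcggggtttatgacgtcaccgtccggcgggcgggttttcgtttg
Mdc1, chr17:35841248-35841497, plus strand: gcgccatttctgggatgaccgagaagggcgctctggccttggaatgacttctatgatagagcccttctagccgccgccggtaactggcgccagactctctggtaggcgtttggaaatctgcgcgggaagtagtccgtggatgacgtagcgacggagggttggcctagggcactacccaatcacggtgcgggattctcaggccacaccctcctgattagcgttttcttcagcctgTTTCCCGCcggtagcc
Mcm5, chr8:75109259-75109508, plus strand: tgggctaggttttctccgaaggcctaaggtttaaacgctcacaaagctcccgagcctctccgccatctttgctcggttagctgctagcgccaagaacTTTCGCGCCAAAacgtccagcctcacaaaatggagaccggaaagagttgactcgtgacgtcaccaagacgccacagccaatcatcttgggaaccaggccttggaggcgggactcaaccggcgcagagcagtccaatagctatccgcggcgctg
Rbl1, chr2:157204535-157204784, minus strand: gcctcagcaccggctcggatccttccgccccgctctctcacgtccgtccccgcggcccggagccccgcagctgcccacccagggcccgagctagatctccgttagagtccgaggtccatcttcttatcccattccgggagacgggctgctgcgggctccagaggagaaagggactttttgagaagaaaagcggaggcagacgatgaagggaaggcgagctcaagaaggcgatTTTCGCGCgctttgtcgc
Top2a and Hmgb2, 2 mitotic genes, hold the CHR and no E2F site, and Ncapg2 holds both.
Top2a, chr11:99024190-99024439, minus strand: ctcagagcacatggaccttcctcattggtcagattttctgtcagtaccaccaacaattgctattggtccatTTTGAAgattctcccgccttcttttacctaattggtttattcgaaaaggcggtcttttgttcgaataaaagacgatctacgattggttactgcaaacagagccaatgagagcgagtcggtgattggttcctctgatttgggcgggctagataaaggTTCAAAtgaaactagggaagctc
Hmgb2, chr8:57511593-57511842, plus strand: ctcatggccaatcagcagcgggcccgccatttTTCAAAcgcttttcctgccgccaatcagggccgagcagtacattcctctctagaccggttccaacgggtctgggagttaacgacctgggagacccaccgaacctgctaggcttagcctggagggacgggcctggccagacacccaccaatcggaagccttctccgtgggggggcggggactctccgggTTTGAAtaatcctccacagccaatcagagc
Ncapg2, chr12:116405186-116405435, plus strand: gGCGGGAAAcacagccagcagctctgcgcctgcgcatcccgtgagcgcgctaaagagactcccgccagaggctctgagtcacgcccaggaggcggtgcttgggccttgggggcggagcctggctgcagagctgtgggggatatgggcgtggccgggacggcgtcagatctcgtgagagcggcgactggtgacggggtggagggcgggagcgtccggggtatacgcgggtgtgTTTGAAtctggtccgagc
The E2F matches of H4c1 began 199, 144, 89 and 64 bases before its start site, and the pair in Mcm5, at 153 and 149 bases, overlap each other. Top2a had a CHR 23 bases before its start site and Hmgb2 one at 30 bases, while the E2F matches of Mdc1 and Rbl1 lay at 16 and 18 bases.

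The 10 best ranked shared regions, by the mean rank of their p130 fold enrichment over the 6 libraries, included H4c1 and H3c1 (histones), Mcm4 and Mcm5 (the replicative helicase), Mdc1 and H2ax (DNA damage signalling) and Ncapg2 (condensin), and also Cep57 with Fam76b and a site inside Phip, away from its ends. Fold enrichment is the authors' ratio of the pileup at a peak summit to the background of the same library, and in a region with several peaks the strongest is given. The first was at the paired histone genes H4c1 and H3c1 (chr13:23760790-23762007), with p130 folds of 39.8, 22.4 and 24.5 in Stag2-KO libraries, against 18.1, 13.8 and 21.0 in Stag2-WT libraries. H4c1 has near-identical copies in the genome, so reads there may be shared with other histone genes. At Mdc1, whose protein gathers repair factors at DNA breaks, the folds were 33.7, 17.6 and 18.3 in Stag2-KO libraries and 13.6, 13.8 and 18.9 in Stag2-WT libraries. The groups overlapped at Mdc1 and did not at H4c1. At Top2a, the topoisomerase that untangles chromosomes for mitosis, the folds were 26.7, 17.6 and 16.2 in Stag2-KO libraries, against 15.8, 12.9 and 18.5 in Stag2-WT libraries.

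Slbp encodes the protein that binds the stem-loop of histone messages. Its promoter had p130 folds of 24.3, 15.5 and 21.8 in Stag2-KO libraries, and 9.35, 13.5 and 23.2 in Stag2-WT libraries. At Mcm5, a subunit of the replicative helicase, the folds were 17, 9.21 and 11.6 in Stag2-KO libraries, against 13.5, 18.6 and 24.7 in Stag2-WT libraries. Both promoters were thus high in each of the 6 libraries, with overlapping groups. Ncapg2 encodes a condensin II subunit and had folds of 18.6, 16.9 and 14.8 in Stag2-KO libraries, against 9.13, 13.9 and 14.5 in Stag2-WT libraries, which did not overlap. The other 4 were the promoter shared by Cep57 (a centrosomal protein) and Fam76b, the one shared by Prkdc (the DNA repair kinase DNA-PKcs) and Mcm4 (another helicase subunit), H2ax (the histone variant phosphorylated at DNA breaks), and a site inside Phip. Their folds lay between 10.2 and 30.6 in all 6 libraries. The site inside Phip, 7130 bp from the nearest end of that gene, was the only one of the 10 away from a gene end.

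**Figure D1:**
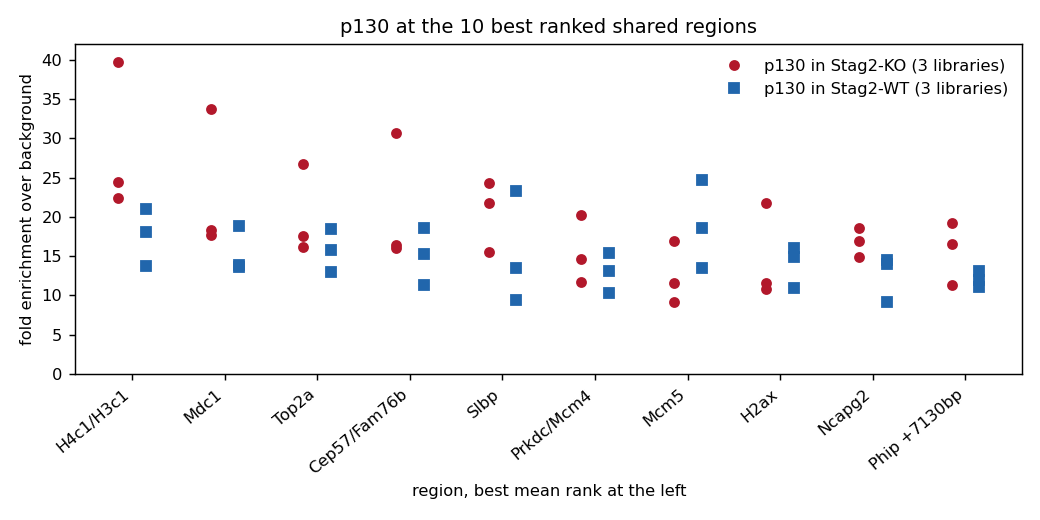
p130 fold enrichment over background (linear axis) at the 10 best ranked shared regions, 1 point per library, red circles for Stag2-KO and blue squares for Stag2-WT (3 libraries each). All values are above 9, H4c1/H3c1 reaches 39.8 in a Stag2-KO library, and the groups overlap at 8 of the 10 regions.

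Shared regions varied widely in strength. The median fold per library was 3.04, 2.75 and 2.73 in Stag2-KO libraries, and 2.74, 3.09 and 2.83 in Stag2-WT libraries. Peaks at q 0.01 were found at 341, 198 and 213 shared regions in Stag2-KO libraries, and at 199, 328 and 277 in Stag2-WT libraries. In all, 102 regions had such a peak in all 6 libraries and are called strong here, 392 had one in 1 to 5 libraries, and 732 had none. The summits of the 6 libraries lay within 250 bp of each other in 89.2% of the strong regions and in 5.60% of those without a q 0.01 peak. A shared region without q 0.01 peaks is thus often a cluster of separate weak summits over a median width of 1203.5 bp.

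Shared regions and regions just outside the rule were close in median strength, but strong peaks in every library were far more common among shared regions. The median of the mean fold was 2.86 over shared regions, with a median width of 1179.5 bp. It was 2.46 over the 4809 regions with a peak in 5 libraries, with a median width of 985 bp. Of the 1226 shared regions, 102 were strong, with the q limit passed in all libraries. Of the 4809 regions, 6 passed that limit in all 5 libraries with a peak. The weakest shared regions were inside Sfi1 and Sp140 and 24254 bp from Rpp21. Folds at the Sfi1 site were 1.54, 1.39 and 1.5 in Stag2-KO libraries and 1.5, 1.47 and 1.44 in Stag2-WT libraries. The ranks of the fold over the 1226 regions had Spearman correlations of 0.377 to 0.605 between pairs of libraries, as a description.

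The p130 folds of the genotypes mostly overlapped. All 3 Stag2-KO folds were above all 3 Stag2-WT folds at 77 shared regions (6.28%), and the reverse held at 80 (6.53%). Among the strong regions, Stag2-KO folds were all above Stag2-WT folds at 11 and all below them at 3. The 11 included E2f3 (an E2F activator), with mean folds of 12 in Stag2-KO and 5.74 in Stag2-WT libraries (n = 3 each), Gins2 (replication), Cks1b (a CDK adaptor) and Ncapg2. The 3 were Mcm3 (helicase), with mean folds of 5.83 in Stag2-KO and 10.2 in Stag2-WT libraries, and sites near Hnrnpul1 and Gtpbp1. These genes were chosen after their values were seen. p130-WT replicate 1 was the only p130 library of its batch and all Stag2-KO libraries were of batch 3, so part of the genotype contrast cannot be told apart from batch.

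Shared regions lay at gene ends far more often than other p130 regions. A region was placed at a gene end when the median of the strongest summit of each library was no more than 500 bp from the start or the end of a protein-coding gene. Of the 1226 shared regions, 616 (50.2%) were at a gene end, 348 (28.4%) inside a gene, 50 (4.08%) within 5 kb of one and 212 (17.3%) farther away. Of regions with a peak in 1, 2, 3, 4 and 5 libraries, 1.58%, 2.01%, 2.98%, 5.89% and 15.7% were at a gene end. Among strong regions the figure was 91.2% (93 of 102), and among those without a q 0.01 peak 29.1%. The gene-end windows cover 39.06 Mb. Without p130-WT replicate 1, the library of batch 2, 1838 regions had a peak in the remaining 5 and 42.2% of them were at a gene end. Leaving out each of the 6 libraries in turn gave 33.3% to 42.2%, and the lowest value was without p130-WT replicate 2. Where the strand of the gene was known, the end was the 5′ end in 518 regions and the 3′ end alone in 9, and in 89 the strand was not known.

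**Figure D2:**
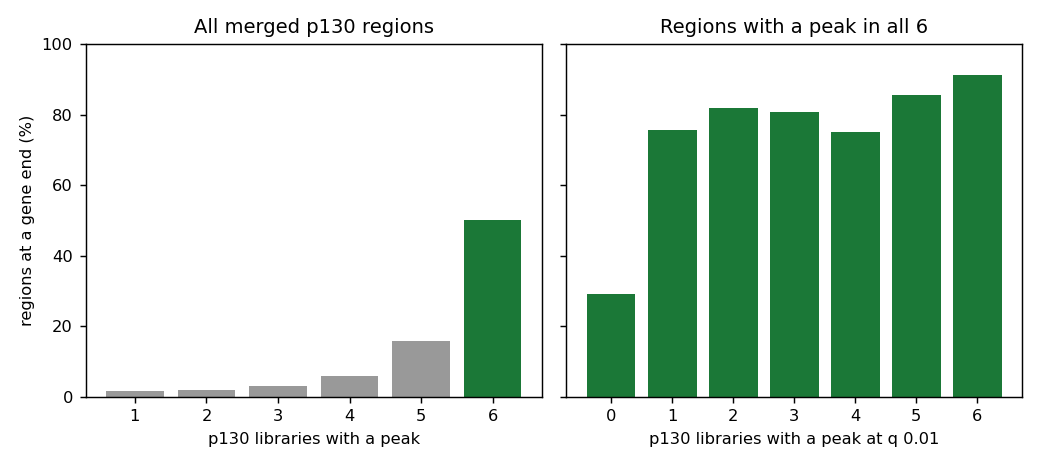
Percent of p130 regions at an end of a protein-coding gene. Left, all merged regions by the number of p130 libraries with a peak, from 1.58% with 1 library to 50.2% with 6 (green). Right, the 1226 shared regions by the number of libraries with a peak at q 0.01, from 29.1% with none to 91.2% with 6.

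Some shared regions lay at the ends of neighbouring genes. Of the 616 at a gene end, 127 (20.6%) were within 500 bp of the ends of at least 2 genes, against 14.7% of the gene-end regions with 5 libraries. Examples among the strong regions were Chek2/Hscb (a checkpoint kinase and an iron-sulfur co-chaperone), Ap4m1/Mcm7 and Dtl/Ints7. In such a promoter the peak cannot be given to either gene. Of the 9 strong regions away from a coding gene's end, those near Uhrf1, Hnrnpul1, Rdm1, Gtpbp1, Smg1 and Luc7l2 were 598 to 1191 bp from one. The site 15679 bp from Gtpbp4 was the only strong region over 5 kb from a gene. Its p130 folds were low, at 2.58, 2.06 and 2.29 in Stag2-KO libraries and 2.06, 5.11 and 2.62 in Stag2-WT libraries, although each passed q 0.01.

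Far from genes, shared regions were weaker. The best ranked was 6411 bp from Trappc9, with p130 folds of 4.03, 2.96 and 3.72 in Stag2-KO libraries, against 4.23, 6.42 and 4.76 in Stag2-WT libraries. The next was 33156 bp from Pum2, where the folds were 7.71, 4.98 and 2.29 in Stag2-KO libraries and 3.35, 4.58 and 5.87 in Stag2-WT libraries. The other 3 lay 31273 bp from Ptpdc1, 6950 bp from Zfp239 and 34418 bp from Arhgap12. Of the 610 shared regions away from coding gene ends, 86 lay within 500 bp of another annotated start site of a coding gene and 41 at the end of a noncoding gene.

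In the promoter table, 425 start-site windows (250 bases before to 50 after the start site) held the position of a shared region, and 76 held a strong one. An E2F site was present in 52.6% of the windows with a strong region and in 19.8% of all windows with a shared region, against 2.95% of all 16457 protein-coding promoters. Windows whose shared region had no q 0.01 peak held one in 7.03% (n = 128). The CHR was in 27.6% of windows with a strong region and 20.2% with any shared region, against 15.8% of all promoters. The CCAAT box (CCAAT, the site of NF-Y), which often accompanies the CHR, was in 84.2% of windows with a strong region and 65.4% with any, against 38.9% of all promoters.

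Other motifs followed other patterns. The ETS site (CCGGAAG) was in 11.8% of windows with a strong region and 26.6% of those without a q 0.01 peak, against 12.2% of all promoters. The AP-1 site (TGANTCA) was in 3.95% of windows with a strong region and 3.13% of those without a q 0.01 peak, against 7.13% of all promoters. The GC box (GGGCGG) was in 86.8% of windows with a strong region and 83.3% of those with any, against 46.9% of all promoters. The median GC content of the windows was 62.0% with a strong region, 63.0% with any and 56.7% over all promoters, and its part in the motif shares was not tested. A match says that these letters are present and not that the site is bound.

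**Figure D3:**
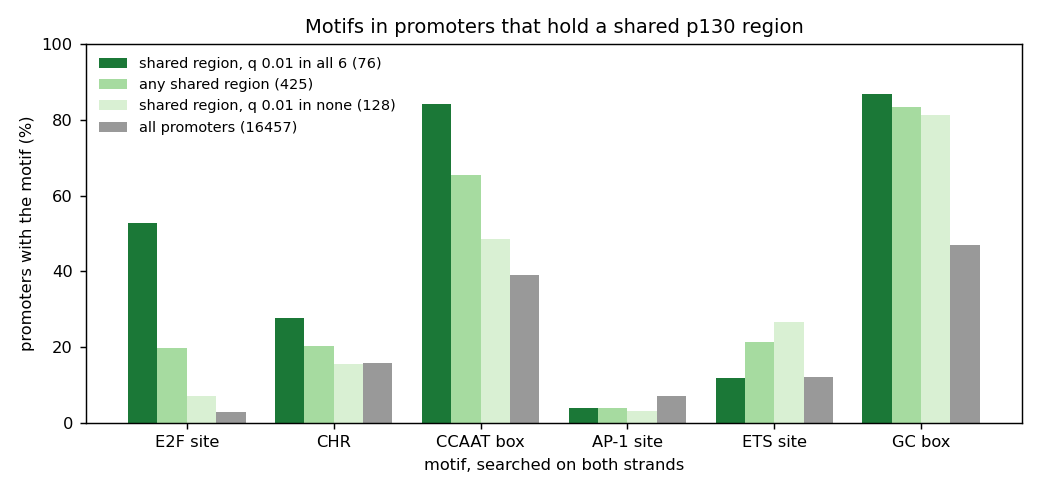
Percent of start-site windows that hold each of 6 motifs on either strand, for windows with a strong shared region (76), any shared region (425), a shared region without a q 0.01 peak (128), and all protein-coding promoters (16457). The E2F site goes from 52.6% with a strong region to 2.95% over all promoters, and the GC box is above 80% in each class with a shared region.

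Cell cycle genes of DREAM lay at 21 of the 102 strong regions. In all, 745 of 20665 protein-coding genes had a shared region at an end (3.61%), and 115 a strong one (0.556%). Of 81 G1/S targets (genes of DNA replication), 35 had a shared region and 13 a strong one, and of 74 G2/M targets (mitotic genes) 32 and 8. The G1/S genes with a strong region included Mcm3, Mcm4, Mcm5 and Mcm7 (helicase), Gins1 and Gins2 (its activators), Pcna (the sliding clamp), Dtl (an adaptor that has replication factors degraded), Cdc25a (a phosphatase that activates CDKs), and E2f1 and E2f3. The G2/M genes were Cdk1 (the mitotic kinase), Cks1b, Cdc25c, Ect2 (cytokinesis), Ncapd2 (condensin), Top2a, Hmgb2 (a chromatin protein) and Cdca2. At Hmgb2 the p130 folds were 15.7, 7.75 and 7.03 in Stag2-KO libraries, against 8.64, 9.23 and 8.22 in Stag2-WT libraries. Those 21 were 20.6% of the strong regions, and DREAM targets lay at 1.64% of the 732 without a q 0.01 peak. Only regions at a gene end can be counted here. Of the 93 strong ones at a gene end, 21 were at a DREAM target, against 12 of the 213 at a gene end without a q 0.01 peak. Without p130-WT replicate 1, 40 of the G1/S and 32 of the G2/M targets had a region shared by the other 5 libraries, against 4.49% of all protein-coding genes.

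Shared p130 regions also lay at some genes of its own complex. Of the 14 subunit and partner genes of DREAM and MuvB, 4 had a shared region. Only that at Lin52 (the MuvB subunit that docks p130) was strong. The others were Rbl1 (p107, the related pocket protein), Rbbp4 (a MuvB subunit) and Foxm1 (a mitotic activator that works with MuvB). Rbl1 is also counted among the G1/S targets above, and Foxm1 among the G2/M targets. At Lin52, the p130 folds were 9.14, 6.59 and 4.34 in Stag2-KO libraries, and 5.98, 4.55 and 6.59 in Stag2-WT libraries. At Rbl1 they were 6.72, 4.98 and 7.04 in Stag2-KO libraries, against 3.73, 6.01 and 4.82 in Stag2-WT libraries. The groups overlapped at both. Rbl2, Lin54 and E2f4 had no shared region at an end, and p130 peaks there were present in 2, 3 and 3 of the 6 libraries.

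Of 12 genes listed for cohesin and factors that act with it, 3 had a shared region: Esco2, Cdca5 and Ctcf. Esco2, which acetylates cohesin in S phase, had p130 folds of 15.5, 11.0 and 10.4 in Stag2-KO libraries, against 11.5, 7.21 and 10.5 in Stag2-WT libraries. Cdca5 encodes sororin, which protects sister cohesion, and shares its promoter with Zfpl1. Ctcf encodes the factor at which cohesin loops are anchored, and its p130 folds were 4.52, 3.29 and 3.53 in Stag2-KO libraries and 2.03, 2.34 and 1.97 in Stag2-WT libraries, which did not overlap. Only 1 of these 6 Ctcf peaks passed q 0.01.

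The other gene lists are set against the 3.61% of all protein-coding genes that had a shared region. Shared regions lay at 12 of 67 replication-dependent histone genes, whose transcripts are made in S phase, 9 of 67 splicing factor genes such as Hnrnpul2, Srsf10 and Hnrnpa3, 7 of 35 chaperone genes such as Tcp1, Hspa8 and Cct7, and 4 of 33 immediate early genes (Dusp1, Egr1, Fos and Zfp36), which growth signals induce. The counts were 5 of 73 for cytosolic ribosomal protein genes, 4 of 78 for mitochondrial ones (5.13%), 4 of 91 for oxidative phosphorylation (4.40%), 3 of 31 for the proteasome and 3 of 34 for tRNA synthetases, of which the mitochondrial ones and oxidative phosphorylation were near the share of all genes. No gene among 27 luminal and 14 basal urothelial markers had one, nor did any of 12 fibroblast, 10 smooth muscle, 14 immune and 10 endothelial markers, 17 p53 targets, 29 genes of other tissues or 1100 olfactory receptors. Among the strong regions were also genes of DNA damage responses, chosen after their values were seen: Mdc1, Prkdc, H2ax, Chek2, Brip1, Bard1, Rfwd3 and Ticrr.

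**Figure D4:**
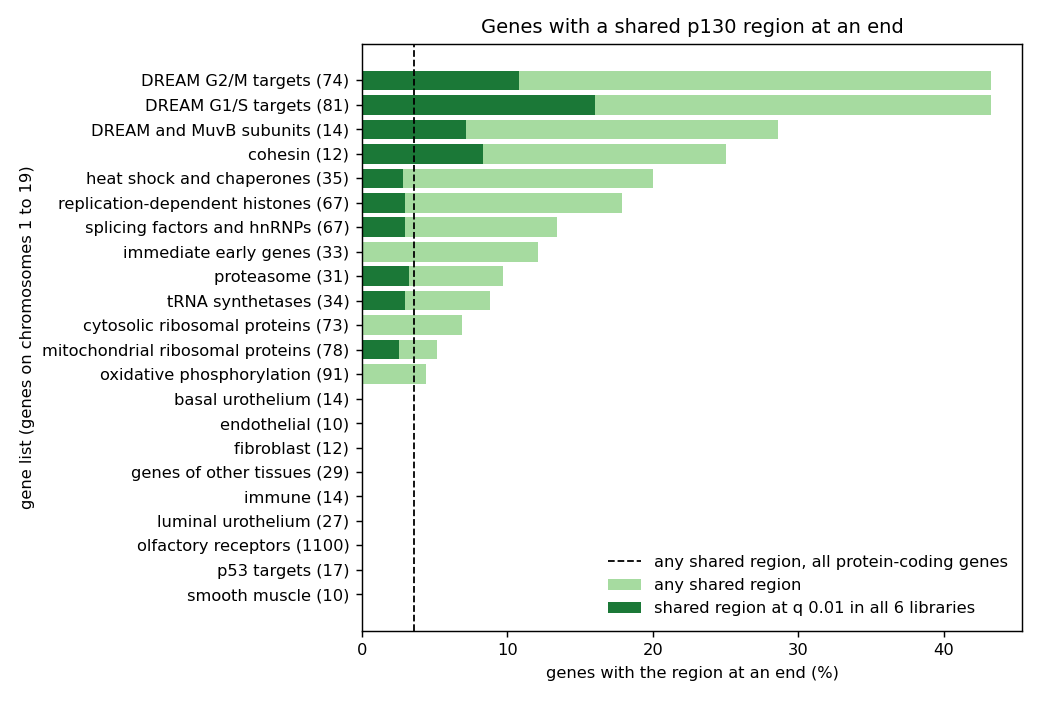
Percent of the genes of 22 lists with a shared p130 region at an end (light green) and with a strong one (dark green, drawn over it), with the number of list genes on chromosomes 1 to 19 in brackets and a dashed line at 3.61%, the value over all protein-coding genes. The G1/S and G2/M targets of DREAM both reach 43.2%, and 9 lists are at 0%.

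STAG2 and LIN54 were measured in other libraries, which the choice of regions did not use. In each of those 9 libraries, a deposited summit lay within 250 bp of the position more often at shared regions than at regions of 5 p130 libraries. The values were 53% ± 5.55 at shared regions and 23.5% ± 1.73 at regions of 5 libraries (SD, n = 9 libraries), a difference of 29.5 percentage points in the same direction in 9 of 9 libraries. The exact two-sided sign-flip permutation test over libraries gave p = 0.00391, the smallest it can give, and 0.00391 after adjustment over 2 tests. Among shared regions, those at gene ends had such a summit in 75.1% ± 8.46 and those away from gene ends in 30.7% ± 3.14 (SD, n = 9 libraries), a difference of 44.4 points with the same exact permutation p of 0.00391. The 9 libraries were all of batch 1, the labels do not say which came from the same animals, and the test covers only the spread between them. For regions up to 1000 bp wide the first difference was 35.8 points. It was 13.7 points for gene-end regions alone and 14.2 for regions away from gene ends. These values are close, so the gap between gene ends and other places was of like size at regions of 5 libraries. It was thus not particular to shared regions. The first difference was smaller within each class, as shared regions were more often at gene ends (50.2%, against 15.7% of regions of 5 libraries).

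With peaks at q 0.01, LIN54 was at more of the shared regions in both Stag2-KO libraries than in any Stag2-WT library. A LIN54 peak at q 0.01 overlapped 58.0% and 57.8% of the shared regions in Stag2-KO libraries, against 43.2%, 45.8% and 33.0% in Stag2-WT libraries. The groups did not overlap, with means of 57.9% ± 0.115 (SD, n = 2) in Stag2-KO and 40.7% ± 6.77 (SD, n = 3) in Stag2-WT. The difference of 17.2 points had p = 0.1 in a two-sided exact permutation test, the smallest this design allows, and 0.333 after adjustment over 4 tests. With all deposited peaks the groups overlapped, with 77.2% and 80.1% in Stag2-KO libraries, against 75.4%, 78.3% and 72.6% in Stag2-WT libraries. Those means were 78.6% ± 2.08 in Stag2-KO and 75.4% ± 2.85 in Stag2-WT (exact permutation p = 0.3). The number of LIN54 peaks at q 0.01 over chromosomes 1 to 19 averaged 14278 in Stag2-KO and 4458 in Stag2-WT, a ratio of 3.20, while the ratio at shared regions was 1.42. At regions shared by the 5 libraries of batch 3, the difference was 15.9 points (exact permutation p = 0.1). The background coverage was 1.43 and 1.34 fragments per base in Stag2-KO LIN54 libraries, against 1.41, 1.28 and 1.46 in Stag2-WT libraries.

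With STAG2, the order of the genotypes was the opposite. A STAG2 peak at q 0.01 overlapped 14.5% and 37.0% of the shared regions in Stag2-KO libraries, against 66.4% and 50.2% in Stag2-WT libraries. The groups did not overlap, with means of 25.8% ± 15.9 in Stag2-KO and 58.3% ± 11.4 in Stag2-WT (SD, n = 2 each). The difference of -32.5 points had p = 0.333 in the exact permutation test, which 2 libraries against 2 cannot go below. With all deposited peaks the means were 70.7% ± 4.96 in Stag2-KO and 78.9% ± 1.61 in Stag2-WT (exact permutation p = 0.333). Most shared regions thus still overlapped some STAG2-antibody peak in Stag2-KO libraries. A deposited summit within 250 bp of the position was found at 43.1% and 48.6% of them in these libraries. The Stag2-KO overlap mean was 41.5% at regions of 5 p130 libraries and 12.3% over all p130 regions. Over chromosomes 1 to 19, STAG2 peaks at q 0.01 averaged 3990.5 in Stag2-KO and 19398.5 in Stag2-WT, a ratio of 0.206, and at shared regions the ratio was 0.442. At regions shared by the 5 libraries of batch 3, the difference was -27.3 points (exact permutation p = 0.333). The background coverage was 1.74 and 2.03 fragments per base in Stag2-KO STAG2 libraries, against 1.74 and 1.36 in Stag2-WT libraries. Whether the remaining Stag2-KO peaks come from STAG2 protein was not tested. Fewer cells with the protein and less protein per cell also cannot be told apart in these bulk libraries.

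**Figure D5:**
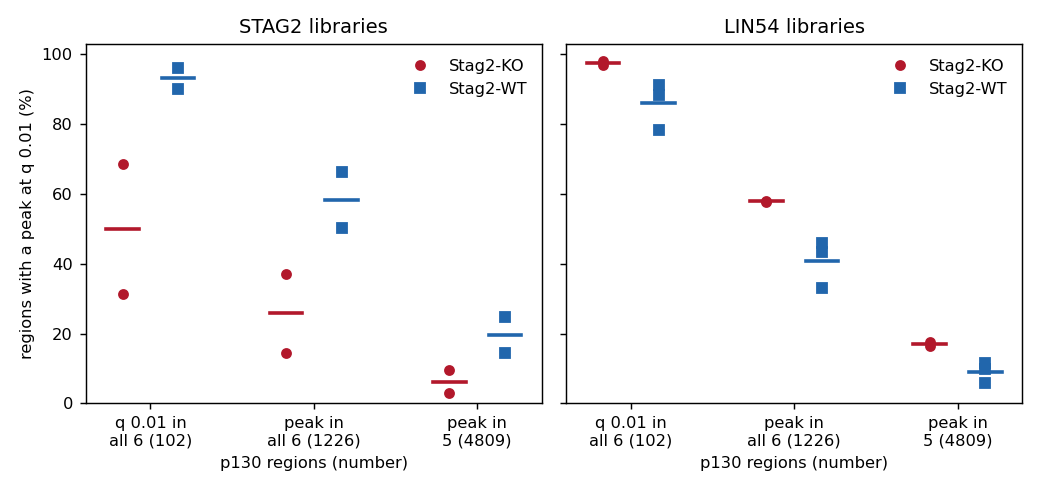
Percent of p130 regions that overlap a STAG2 peak (left panel) or a LIN54 peak (right panel) at q 0.01, 1 point per library with the mean as a bar, red circles for Stag2-KO and blue squares for Stag2-WT, in strong shared regions (102), all shared regions (1226) and regions of 5 p130 libraries (4809). Stag2-KO points lie below Stag2-WT points for STAG2 and above them for LIN54 in all 3 sets.

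Of the 3 sets of regions compared, the strong ones overlapped q 0.01 peaks of both antibodies most often. A LIN54 peak at q 0.01 overlapped 97.1% and 98.0% of them in Stag2-KO libraries, against 88.2%, 91.2% and 78.4% in Stag2-WT libraries. A STAG2-antibody peak at q 0.01 overlapped 31.4% and 68.6% in Stag2-KO libraries, against 96.1% and 90.2% in Stag2-WT libraries. Strong regions were also more often at gene ends (91.2%, against 50.2% of all shared regions). At all shared regions at gene ends, the LIN54 means were 85.9% in Stag2-KO and 62.8% in Stag2-WT. The STAG2 means there were 38.1% in Stag2-KO and 84.2% in Stag2-WT. The part of gene ends in these shares was not tested. At the 100 strong regions with a LIN54 peak in all 5 libraries, the median of the mean LIN54 fold was 11.9 in Stag2-KO and 6.71 in Stag2-WT. Both Stag2-KO folds were above all 3 Stag2-WT folds at 68 of these 100 strong regions and at 436 of 712 shared ones (61.2%), against 420 of 805 regions of 5 p130 libraries (52.2%) and 46.6% of all 9216 p130 regions with such peaks. This order of the LIN54 folds was common outside the shared regions too. At the 81 strong regions with a STAG2 peak in all 4 libraries, the median of the mean STAG2 fold was 3.75 in Stag2-KO and 5.77 in Stag2-WT. Both Stag2-WT folds were above both Stag2-KO folds at 47 of these 81 strong regions (58.0%) and at 400 of 674 shared ones (59.3%), against 486 of 845 regions of 5 p130 libraries (57.5%) and 48.9% of all 13140 p130 regions with such peaks. The p130 fold, for comparison, had medians of 7.86 in Stag2-KO and 7.24 in Stag2-WT. Folds are scaled within each library and were not tested between genotypes.

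Strength of p130 and of LIN54 went together only loosely. Over shared regions with a peak in every library concerned, the Spearman correlation of the mean folds was 0.53 in Stag2-KO (n = 881) and 0.44 in Stag2-WT (n = 739), and over strong regions it was 0.12 in Stag2-KO and 0.07 in Stag2-WT (n = 101 each). With STAG2 the values were 0.29 in Stag2-KO (n = 719) and 0.37 in Stag2-WT (n = 881). These are descriptions across regions, which share libraries and chromatin. At Srgap2 the mean LIN54 fold was 43.5 in Stag2-KO and 15.5 in Stag2-WT, with mean p130 folds of 4.54 in Stag2-KO and 4.92 in Stag2-WT. Mcm5, among the 10 best p130 regions, had LIN54 folds of 2.81 and 3.69 in Stag2-KO libraries, against 2.93, 2.68 and 3.88 in Stag2-WT libraries. At Pclaf, a PCNA-binding factor gene with mean p130 folds of 8.28 in Stag2-KO and 8.10 in Stag2-WT, no LIN54 library had a peak at q 0.01. Srgap2 and Pclaf were chosen after their values were seen.

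Single regions followed the genotypes to different degrees. A STAG2 peak at q 0.01 in both Stag2-WT libraries and no Stag2-KO library was found at 192 shared regions (15.7%), against 0.358% of all p130 regions, and the reverse at 0, against 0.00122%. STAG2 peaks at q 0.01 in all 4 libraries were at 165 shared regions (13.5%), against 0.0554% of all p130 regions. The best ranked of the 192 were Top2a, Prkdc/Mcm4, Ncapg2, the site inside Phip, and Esco2. At Top2a, STAG2 had no peak and a fold of 2.14 in the Stag2-KO libraries, against 3.45 and 4.65 in Stag2-WT libraries. At Prkdc/Mcm4 the STAG2 folds were 2.15 and 3.29 in Stag2-KO libraries, against 5.79 and 7.21 in Stag2-WT libraries. The regions of 5 p130 libraries showed this pattern in 5.45%.

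LIN54 at q 0.01 in both Stag2-KO libraries and no Stag2-WT library was found at 71 shared regions (5.79%), against 0.241% of all p130 regions. The regions of 5 p130 libraries had this pattern in 2.66%, and the strong regions in 3.92% (4 of 102). The reverse was found at 0, against 0.000347%. All 5 LIN54 libraries had such a peak at 352 shared regions (28.7%) and 76 of the 102 strong ones, against 0.0772% of all p130 regions. The best ranked of the 71 were Brip1 (a repair helicase), Ccdc82, Srsf10 (a splicing factor), E2f1 and Cdkn3 (a phosphatase that acts on CDKs). At Brip1 the LIN54 folds were 4.53 and 7.96 in Stag2-KO libraries, against 3.13, 3.52 and 2.17 in Stag2-WT libraries. At Ccdc82 they were 8.64 and 8.54 in Stag2-KO libraries and 3.00, 1.83 and 3.35 in Stag2-WT libraries. In each of these counts the share of shared regions was above that of all p130 regions, which are mostly weak and seldom hold any q 0.01 peak, except for the 2 counts of 0.

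DREAM targets and subunit genes below the 10 best regions varied too. At Hmgb2 the LIN54 folds were 8.60 and 11.6 in Stag2-KO libraries, against 5.25, 7.73 and 6.96 in Stag2-WT libraries, and the STAG2 folds were 2.56 and 3.33 in Stag2-KO libraries, against 5.09 and 5.53 in Stag2-WT libraries. At Lin52 the LIN54 folds were 17.7 and 18.2 in Stag2-KO libraries, against 10.9, 11.5 and 8.13 in Stag2-WT libraries. Rbl1 differed from Lin52: it had a LIN54 peak in 1 Stag2-KO library, with a fold of 2.42, and in 1 Stag2-WT library, with a fold of 1.79, and neither passed q 0.01. Esco2 had LIN54 folds of 5.74 and 8.66 in Stag2-KO libraries, against 6.74, 5.96 and 6.19 in Stag2-WT libraries, which overlapped.

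High LIN54 folds were also found below the strongest p130 regions. At Egr1, a growth factor-induced transcription factor gene, the p130 folds were 3.79, 3.65 and 3.24 in Stag2-KO libraries and 3.54, 3.81 and 4.62 in Stag2-WT libraries, which placed it at rank 213 of the 1226. Its LIN54 folds were 32.8 and 29.9 in Stag2-KO libraries, against 17.9, 22.7 and 10.1 in Stag2-WT libraries, and its STAG2 folds were 9.59 and 5.54 in Stag2-KO libraries and 6.96 and 12.6 in Stag2-WT libraries. The LIN54 groups did not overlap, while the STAG2 groups did.

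At some shared regions STAG2 and LIN54 were weak or not detected. No STAG2 or LIN54 peak at q 0.01 in any of the 9 libraries was found at 363 shared regions (29.6%), of which 10 were at a gene end, against 71.6% of regions of 5 p130 libraries and 96.3% of all p130 regions. At 19 shared regions (1.55%) none of the 9 libraries had any deposited peak, against 6.09% of regions of 5 libraries and 38.5% of all p130 regions. None of the 19 was at a gene end. At the other extreme, 130 shared regions (10.6%), 28 of them strong, held a q 0.01 peak in all 9 libraries, against 1.35% of regions of 5 libraries and 0.0214% of all p130 regions. At Atp5g3, a subunit gene of the mitochondrial ATP synthase, p130 folds were 3.15, 1.97 and 2.85 in Stag2-KO libraries and 2.17, 4.91 and 5.28 in Stag2-WT libraries, and the only STAG2 or LIN54 peak was in 1 LIN54 Stag2-WT library, with a fold of 1.81. The site near Gtpbp4 had LIN54 folds of 6.10 and 4.07 in Stag2-KO libraries, against 5.28, 5.54 and 2.58 in Stag2-WT libraries, and no STAG2 peak in any of the 4.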

How the data were processed

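Peak lists of 15 CUT&RUN libraries were used, while the 2 samples with pMNase and no antibody in their titles were left out. The submitters' processing notes name the tools bcl2fastq, Bowtie2 and MACS2 and the build mm10; versions, settings and whether a control entered the calls are not given in the sources used here. Each deposited peak has a fold enrichment (a ratio of pileup to background), a −log10 p and a −log10 q from the authors, and a deposited score that was not used. Such values hold within a library and were used for description, ranking and filtering alone. Background coverage is the lowest common value that solves a summit's fold and p for a whole fragment count. A peak that is absent was not detectable at that depth.

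A region's position was the median of the strongest summit of each library, and regions were ranked by the mean rank of their fold over 6 libraries. Q 0.01 means −log10 q of at least 2. Genes, start sites and promoter sequences were from RefSeq (GRCm38.p6): 20665 protein-coding genes on chromosomes 1 to 19, of which 16457 had a promoter sequence and strand. Genes of 22 lists were matched by symbol or synonym. Named were the 10 best ranked regions, the 5 best ranked far from genes, the 3 worst ranked, up to 3 per list, the 5 best ranked per genotype pattern, and Rbl2, Lin54 and E2f4; others are said to have been chosen after their values were seen. Regions, lists and tests were chosen with earlier results of these data known. Libraries, not regions, were the unit of each test. The code was tested on simulated data. The tools were pandas 2.3.3 and NumPy 2.4.6 under Python 3.11.15, with SciPy 1.17.1 for intervals and Matplotlib 3.10.9 for figures.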

Additional observations from a re-analysis of the deposited data

Results flagged for a closer look

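The genotype difference at shared p130 regions itself differed between the antibodies. The percent of shared regions with a q 0.01 peak was 32.5 points lower in Stag2-KO than in Stag2-WT for STAG2 (a difference of -32.5) and 17.2 points higher for LIN54, so the STAG2 difference minus the LIN54 difference was -49.8 points. A two-sided exact permutation of the genotype labels within each antibody, with 60 arrangements, gave p = 0.0167, the smallest these arrangements allow, with the genotypes already separated within each antibody. With all deposited peaks the value was -11.3 points (exact permutation p = 0.05). The same calculation gave -21.4 points at regions of 5 p130 libraries and -2.18 points over all p130 regions (exact permutation p = 0.0167 each), so the contrast was not particular to shared regions. All 9 libraries were of batch 1.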

How the results depend on the processing

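The number of shared regions depended on the definition. It was 102 with q 0.01 peaks alone and 2899 with summits extended by 250 bp, and 1838 to 1963 when one p130 library was left out, against 1226. The percent at a gene end was 41.8% with a 250 bp window, 56.6% with a 1000 bp window, 57.9% when the whole region was set against the window, 91.2% with q 0.01 peaks alone, 25.1% with extended summits and 33.3% to 42.2% with one p130 library left out; without p130-WT replicate 1, the batch 2 library, it was 42.2%. In batch 3 alone, 32 of 74 G2/M and 40 of 81 G1/S targets had a shared region, against 4.49% of coding genes. The STAG2 and LIN54 differences between genotypes kept their direction under the alternatives run, except that of deposited LIN54 peaks at strong regions, which was -0.654 points; the cause was not tested. With one library left out, the q 0.01 differences ranged from -43.8 to -21.3 points for STAG2 and from 13.4 to 19.8 for LIN54, and the deposited ones from -11.7 to -4.65 for STAG2 and from 1.71 to 4.65 for LIN54. The difference between shared regions and regions of 5 libraries was 26.7 points with the STAG2 libraries alone (exact permutation p = 0.125) and 31.8 with LIN54 alone (p = 0.0625, exact), and that between gene ends and other places 40.2 with STAG2 alone (p = 0.125, exact) and 47.8 with LIN54 alone (p = 0.0625, exact); these are the smallest p such numbers of libraries allow. With same-numbered libraries as a replicate block, the q 0.01 differences were -32.5 points for STAG2 and 13.4 for LIN54 (exact sign-flip permutation p = 0.5 each), and the deposited ones -8.16 for STAG2 and 1.75 for LIN54. Deviations of same-numbered libraries had correlations of -0.0144 to 0.0348 over shared regions. Such correlations of peak folds cannot decide whether the numbers pair the libraries, and the labels name no shared animals.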
